A study of Mus musculus with 10 samples.

Results

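The translation initiation and elongation factors described here are the 58 genes, of 19935 measured, whose platform symbol begins with Eif1 to Eif6 or with Eef1 or Eef2. The pattern matched 61 genes with a probe set of a single gene, and the 3 left out were the interferon-induced kinase gene Eif2ak2 and the X- and Y-linked genes of the eIF2 gamma subunit. The name pattern also takes in genes that are not factors in the strict sense: the eIF2 kinases, methyltransferases that act on eEF1 or eEF2, the exon junction helicase gene Eif4a3, and Eef1e1, which encodes a scaffold protein of the multisynthetase complex. Eif1, Eif2s1, Eif3g, Eif3j1, Eif3j2, Eif4g1, Eif4ebp3 and Eef1g were not analysed here, so the eIF2 complex is represented by its beta subunit gene Eif2s2 alone and the eIF4G scaffolds by Eif4g2 and Eif4g3.

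Total RNA came from livers of NML-KO mice, which lack nucleomethylin, the nucleolar protein encoded by Rrp8, and of wild-type (WT) mice, all 12 weeks old, with 5 livers of each genotype and 1 whole-transcript array per liver. The labels state neither strain, sex, the deleted part of the gene nor the time of dissection, so the Rrp8 signal cannot be read as intact transcript. The signal of Rrp8 checked the labels: its log2 intensity was 6.99, 6.78, 6.65, 7.19 and 6.75 in NML-KO livers 1 to 5, against 7.90, 7.66, 7.83, 7.70 and 7.65 in WT livers 1 to 5, with no overlap. The 6 measured hepatocyte markers averaged 7.42 to 7.49 log2 units above the mean of all genes in NML-KO livers and 7.40 to 7.51 in WT livers. The livers also fell into 2 sets by the signal of Dbp, a transcription factor gene under direct control of the circadian clock. NML-KO livers 1 to 3 and WT livers 1 and 2 formed the Dbp-high set, with log2 Dbp of at least 9.68, and NML-KO livers 4 and 5 with WT livers 3 to 5 formed the Dbp-low set, with at most 6.60. The line between them was drawn at 8. These sets are not labels of the study: they were defined from the Dbp signal after it had been seen, and whether they reflect the time of dissection or a processing batch cannot be told apart.

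Protein synthesis begins when eIF2 carries the initiator tRNA to the small ribosomal subunit, where eIF1, eIF1A and the large eIF3 complex hold it ready to scan. The cap-binding complex of eIF4E, eIF4G and the helicase eIF4A recruits the messenger RNA, and inhibitory eIF4E-binding proteins, controlled by the kinase complex mTORC1, can block it. eIF5, eIF5B and eIF6 act around start codon recognition and subunit joining, and eEF1, eEF2 and eIF5A then serve elongation. In mouse liver, feeding and the circadian clock are known to modulate this machinery, at the level of phosphorylation as well as of transcripts.

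Between the Dbp sets the factors divided by member and not as a whole. With genotype as a term in limma, 12 of the 58 members passed an adjusted p of 0.05 (20.7%), 5 higher and 7 lower in Dbp-high livers, where 12.9% of all genes passed, 4.92% higher and 7.99% lower. The median log2 difference of the members was -0.015, against 0.024 over all genes, and 28 members lay above 0 and 30 below it (57.5% of all genes lay above). The direction of this median depended on the scaling: after quantile normalization it was 0.035, with 36 members above 0, against 0.0092 over all genes. The split of the calls moved as well, to 8 higher and 5 lower members after quantile normalization, while the higher calls made up 49.9% of those over all genes, against 38.1% as deposited. Of the 12 calls, 10 were shared by both scalings, those of Eif4g2 and Eif4g3 were lost, and Eef2, Eef2k and Eif2a were gained. For 9 members the 2 sets did not overlap (15.5%), against 12.2% of all genes. Among those that passed, the largest falls in Dbp-high livers, on the brightest probe set of each gene, were those of Eif5a, Eif1a and Eif2s2, and the largest rises those of Eif4a2 and Eif1ad. On probe sets whose neighbours lie on the gene's own chromosome, Eif5a was at -0.48, nearer 0 than Eif1a, and Eif2s2 at -0.12 did not pass. The count was 7 to 15 when single livers were left out, with the 7 obtained without NML-KO 5 (8.15% of all genes passed then). All 10 of these fits kept the calls of Eif5a, Eef1akmt1, Eif1a, Eif4a2, Eif4g2, Eif1ad and Eif2s2. Within the smaller sets of a single genotype, 1 member passed among the NML-KO livers, where 1.28% of all genes did, and 4 among the WT livers, where 6.13% did. Of those 4, Eif2ak1 is not among the 12.

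**Figure D1:**
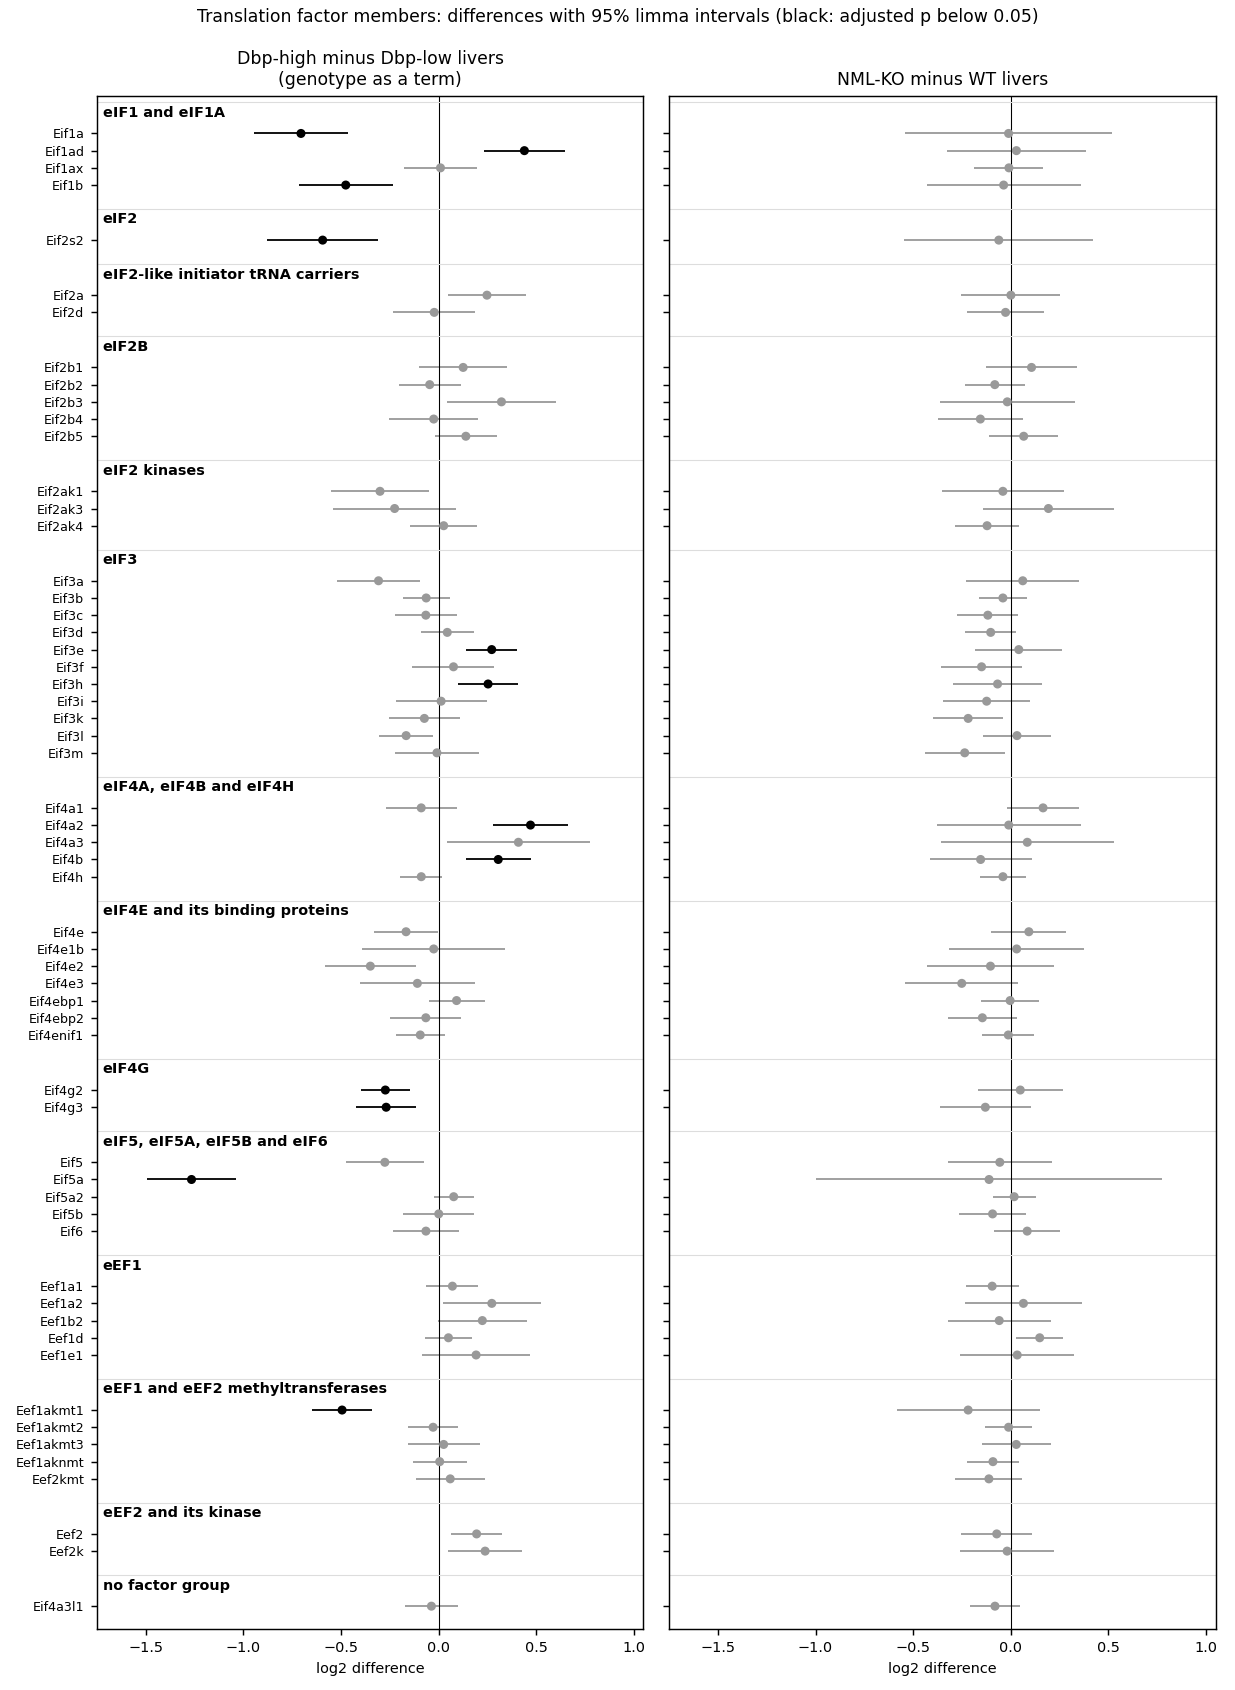
Log2 difference of every member, grouped by factor, between Dbp-high and Dbp-low livers with genotype as a term (left panel) and between NML-KO and WT livers (right panel). Points are limma estimates, horizontal lines are 95% intervals, and black marks an adjusted p below 0.05. The 12 black points all lie in the left panel, from Eif5a at -1.27 to Eif4a2 at 0.47.

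Some markers of other liver cells also differed between the Dbp sets, mainly those of Kupffer cells and macrophages. Because these are bulk samples, fewer cells of a type and less RNA per cell cannot be told apart. Of 8 Kupffer cell and macrophage markers, 7 lay below 0 in Dbp-high livers, with a median log2 difference of -0.51. Of the 8, 2 passed (25%, against 12.9% of all genes), Vsig4 at -1.24 and Cd68 at -0.71. The mean of the 8 above that of all genes ran from 0.82 to 1.64 in Dbp-high livers and from 1.38 to 2.06 in Dbp-low livers. Of the others, 1 of 6 cholangiocyte markers passed as lower and 1 of 6 hepatocyte markers as higher. No sinusoidal endothelial, stellate cell, B cell, T and NK cell, neutrophil, erythroid, skeletal muscle or fat marker passed in this fit. The skeletal muscle list includes Eef1a2, which is also a member. WT 2, of the Dbp-high set, stood apart on the 5 fat markers, whose mean relative to all genes was 0.23 there, against -1.19 to -0.95 in the other 9 livers. Without WT 2, a setting chosen after seeing the data, 10 members passed between the Dbp sets, 9 of them among the 12, with Eif3h, Eif4b and Eif4g3 lost. The part of these markers in the factor differences was not tested.

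Eif5a, which encodes the hypusine-bearing factor that helps ribosomes through difficult peptide bonds, stood furthest from 0 among the members. Its log2 intensity in Dbp-high livers was 10.05, 9.86 and 9.93 for NML-KO and 9.49 and 9.86 for WT, against 10.92 and 11.25 for NML-KO and 10.94, 11.20 and 11.06 for WT in Dbp-low livers. All 5 Dbp-high livers lay well below all 5 Dbp-low livers, in both genotypes. The difference was -1.27 (SE 0.10, 95% interval -1.49 to -1.04, adjusted p = 8.93e-05), a signal 2.40-fold lower in Dbp-high livers, with -1.14 among NML-KO and -1.39 among WT livers. Its paralog Eif5a2 differed by 0.08 (SE 0.05, adjusted p = 0.313). The enzyme genes that make hypusine on eIF5A, Dhps and Dohh, differed by -0.20 and 0.23 and neither passed (adjusted p = 0.235 and 0.130). Among the WT livers alone Dohh differed by 0.46 and passed (adjusted p = 0.0327 in limma), and among the NML-KO livers it differed by -0.007.

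The size of the Eif5a difference depended on the probe set. The array has 2 probe sets named Eif5a, and the brighter, used above, has identifiers around it that belong to genes of chromosome 5, while Eif5a lies on chromosome 11. The other has all 10 of its nearest named probe sets on chromosome 11, and there the means were 8.98 ± 0.13 in Dbp-high livers and 9.45 ± 0.13 in Dbp-low livers (SD, n = 5 each), again with no overlap. That probe set gave -0.48 (SE 0.08, adjusted p = 0.00456 over all probe sets), or 1.40-fold lower. Of all named probe sets, 96.7% had at least 6 of their 10 neighbours on the chromosome of their gene. For Eif2s2, the beta subunit gene of eIF2, the call itself depended on this choice. Its brighter probe set read 8.02, 7.63 and 7.89 in NML-KO and 7.58 and 8.12 in WT Dbp-high livers, against 8.27 and 8.72 in NML-KO and 8.44, 8.38 and 8.33 in WT Dbp-low livers, with no overlap. This brighter probe set, with neighbours on chromosome 8, gave -0.59 (SE 0.13, adjusted p = 0.0130 over all probe sets), and the dimmer, with neighbours on the gene's own chromosome 2, gave -0.12 (SE 0.11, adjusted p = 0.554). Eif4a1 had 3 probe sets, none of which passed. The brightest, with neighbours on chromosome 19, gave -0.09, and another, with neighbours on chromosome 1, gave 0.07. The one with all 10 neighbours on the gene's own chromosome 11 gave 0.14. The files do not say which transcripts or genomic copies each probe set reads.

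**Figure D2:**
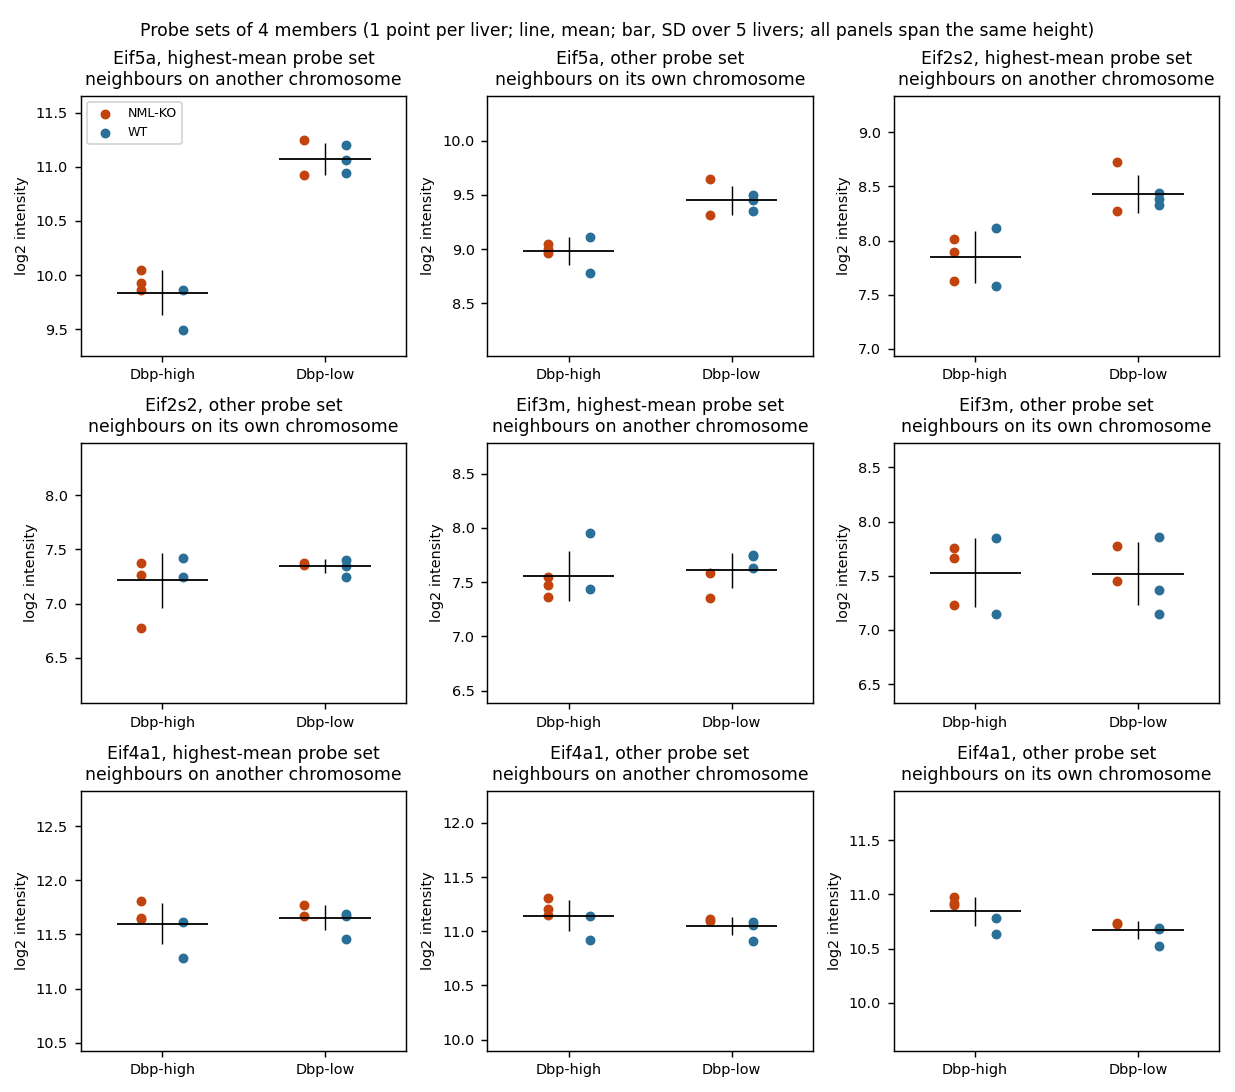
Log2 intensity of each probe set of Eif5a, Eif2s2, Eif3m and Eif4a1 in Dbp-high (left) and Dbp-low livers (right), coloured by genotype; each panel spans the same height. Lines are means and bars SD over 5 livers. Both Eif5a probe sets separate the Dbp sets, by 1.27 and 0.48, while of the Eif2s2 probe sets the brighter one alone does.

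Among the factors of scanning and start codon choice, 2 of 4 members fell and 1 rose. Eif1a, for the factor eIF1A that steadies the scanning subunit, had 7.32, 7.30 and 7.0 in NML-KO and 6.97 and 7.24 in WT Dbp-high livers, against 8.01 and 7.87 in NML-KO and 7.87, 7.98 and 7.50 in WT Dbp-low livers. The sets did not overlap, and the difference of -0.70 (SE 0.11, adjusted p = 0.00278) was 1.63-fold. The platform annotation also lists Eif1a on a probe set with several gene symbols, which was not used. Eif1b, a paralog of the start codon selection factor gene Eif1, was 1.39-fold lower (8.22 ± 0.22 in Dbp-high and 8.68 ± 0.11 in Dbp-low livers, SD, n = 5 each; adjusted p = 0.0178), also without overlap. Eif1ad, a gene for a protein with an eIF1A-like domain, went the other way, at 8.12, 7.76 and 8.07 in NML-KO and 8.24 and 8.09 in WT Dbp-high livers, against 7.61 and 7.73 in NML-KO and 7.62, 7.73 and 7.46 in WT Dbp-low livers. The 1.36-fold rise passed (adjusted p = 0.0126), and the lowest Dbp-high liver lay just above the highest Dbp-low liver. Eif1ax, the X-linked eIF1A gene, differed by 0.010 (SE 0.08, adjusted p = 0.953).

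Of the 5 genes of eIF4A, eIF4B and eIF4H, 2 rose, and both measured genes of the eIF4G scaffolds fell. The scaffold calls held under the deposited scaling and not after quantile normalization. Eif4a2, one of the RNA helicases that unwind leader sequences, had 9.93, 10.29 and 10.18 in NML-KO and 10.14 and 10.39 in WT Dbp-high livers, against 9.79 and 9.59 in NML-KO and 9.85, 9.67 and 9.78 in WT Dbp-low livers. All Dbp-high livers were above all Dbp-low livers, by 0.47 (SE 0.09, adjusted p = 0.00682), with 0.44 among NML-KO and 0.50 among WT livers. Eif4b, for the cofactor that stimulates the helicase, was 1.24-fold higher (10.26 ± 0.16 in Dbp-high and 9.99 ± 0.16 in Dbp-low livers, SD, n = 5 each; adjusted p = 0.0244). WT 3 and WT 5 of the Dbp-low set, at 10.26 and 10.03, lay inside the Dbp-high range, which began at 10.01. The Eif4b call was lost in 7 of 22 alternatives, and in 1 more the difference turned sign. Of the other helicase genes, Eif4a1 differed by -0.09 on its brightest probe set and by 0.14 on that with neighbours on its own chromosome. Eif4a3 differed by 0.41 (SE 0.16, adjusted p = 0.139), and Eif4h, for a cofactor like eIF4B, by -0.09 (adjusted p = 0.280). Eif4g2, also known as DAP5, a scaffold that lacks the eIF4E site, had 10.92, 10.80 and 10.74 in NML-KO and 10.79 and 10.77 in WT Dbp-high livers, against 11.18 and 11.14 in NML-KO and 11.07, 10.94 and 10.96 in WT Dbp-low livers. This 1.21-fold fall was small but the sets stayed apart (adjusted p = 0.0109), whereas Eif4g3, at -0.27 (SE 0.07, adjusted p = 0.0297), overlapped. Quantile normalization ended both calls, with Eif4g2 at -0.13 (adjusted p = 0.204) and Eif4g3 at -0.20 (adjusted p = 0.136), and Eif4g3 lost its call in 10 of 22 alternatives.

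Promoters of 2 lower and 2 higher members are shown. The 2 lower ones are those of the 4 lower members with a window that hold CACGTG, while Eif2s2 and Eif4g3 hold none, so the choice sets the contrast seen between them. Each is the 250 bases before the annotated start, 5′ to 3′, from RefSeq on GRCm38.p6, with any CACGTG, the E-box bound by the clock activators, in capitals. They lie at chr11:69921387-69921636 on the minus strand, chr9:120492356-120492605 on the plus strand, chr16:23107218-23107467 on the plus strand and chr15:102073523-102073772 on the plus strand.
Eif5a: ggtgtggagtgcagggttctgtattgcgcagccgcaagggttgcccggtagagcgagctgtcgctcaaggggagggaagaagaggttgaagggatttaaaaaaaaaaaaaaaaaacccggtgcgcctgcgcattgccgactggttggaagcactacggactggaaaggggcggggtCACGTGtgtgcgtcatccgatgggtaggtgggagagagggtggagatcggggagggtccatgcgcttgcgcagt
Eif1b: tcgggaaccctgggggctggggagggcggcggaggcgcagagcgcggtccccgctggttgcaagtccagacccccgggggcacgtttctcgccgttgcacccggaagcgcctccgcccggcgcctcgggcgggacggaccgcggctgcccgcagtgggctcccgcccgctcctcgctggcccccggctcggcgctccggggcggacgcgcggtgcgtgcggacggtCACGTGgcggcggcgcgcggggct
Eif4a2: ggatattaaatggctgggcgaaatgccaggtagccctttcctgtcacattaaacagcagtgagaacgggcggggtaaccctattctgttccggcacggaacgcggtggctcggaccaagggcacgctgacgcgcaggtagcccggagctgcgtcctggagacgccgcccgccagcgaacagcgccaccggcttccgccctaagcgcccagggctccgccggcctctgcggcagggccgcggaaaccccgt
Eif4b: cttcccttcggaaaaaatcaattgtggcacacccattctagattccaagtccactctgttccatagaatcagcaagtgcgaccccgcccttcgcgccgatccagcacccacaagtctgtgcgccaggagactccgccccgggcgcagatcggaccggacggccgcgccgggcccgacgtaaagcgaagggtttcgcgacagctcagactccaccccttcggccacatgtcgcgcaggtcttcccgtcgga
The Eif5a window shown, that of 1 of its 6 annotated starts, of which 3 have the hexamer, has CACGTG at position -74 and that of Eif1b at -24, counted back from the start, while those of Eif4a2 and Eif4b have none. CACGTG is its own reverse complement, so a single search covers both strands. RefSeq windows, reaching 50 bases past the start, were found for 45 of the 58 members. Of their 60 windows, 14 held CACGTG (23.3%), against 7.15% of all 32851 windows, and the median GC content was 62.5% for the members and 52.7% for all. Of the windows of members that passed, 0 of 3 for higher and 4 of 10 for lower ones held it, 3 of those 4 being windows of Eif5a, and 10 of 47 for members that did not pass (21.3%). The Eif5a windows with the hexamer at -74 and at -185 overlap and hold the same site, which is thus counted more than once. A C followed by at least 4 pyrimidines at the annotated start, the letters of a terminal oligopyrimidine tract, was found in 1 member window, that of Eif3f (1.67%, against 2.51% of all). The search took the annotated first base alone, so a tract that begins at another base was missed. A window without a match may therefore still belong to a message with such a tract. A match describes these letters only.

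The cap-binding genes showed no call. Eif4e2, which encodes the repressive cap-binding paralog 4EHP, came nearest, at 8.31 ± 0.22 in Dbp-high and 8.67 ± 0.09 in Dbp-low livers (SD, n = 5 each), a difference of -0.35 (SE 0.10, adjusted p = 0.0563), and it passed in 4 of 22 alternatives, with a smallest adjusted p of 0.0103 without NML-KO 1. The cap-binding factor gene Eif4e differed by -0.17 (SE 0.07) on a probe set with neighbours on chromosome X, and by -0.14 and -0.04 on its probe sets with neighbours on its own chromosome 3. Its paralog Eif4e3 differed by -0.11. Of the inhibitors of eIF4E, Eif4ebp1 differed by 0.09 (95% interval -0.05 to 0.24) and Eif4ebp2 by -0.07 (95% interval -0.25 to 0.12), and both intervals include 0.

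In eIF3, the complex that bridges the messenger RNA and the small subunit, 2 of 11 measured subunit genes rose, none fell past the threshold, and the median difference was -0.008, or 0.042 after quantile normalization. Eif3e had 8.78, 8.83 and 8.89 in NML-KO and 8.78 and 8.84 in WT Dbp-high livers, against 8.51 and 8.54 in NML-KO and 8.71, 8.45 and 8.56 in WT Dbp-low livers. The Dbp-high livers were tightly grouped and all above the Dbp-low livers (0.27, SE 0.06, adjusted p = 0.0147). Eif3h was 1.19-fold higher with overlap (adjusted p = 0.0401), and this call was lost in 8 of the 10 fits that left out a liver. Eif3a, the largest subunit and a core of the complex, leaned the other way at -0.31 (SE 0.10, adjusted p = 0.0632), as did Eif3l at -0.17 (adjusted p = 0.115).

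In the fit over all 10 livers, no gene of eIF2B, the exchange factor that recharges eIF2, or of the eIF2 kinases passed. Within eIF2B the differences ran from -0.05 for Eif2b2 to 0.32 for Eif2b3 (SE 0.13, adjusted p = 0.132). Eif2ak1, the haem-regulated kinase gene, differed by -0.30 (SE 0.11, adjusted p = 0.117). It differed by -0.45 among the WT livers alone, where it passed (adjusted p = 0.0373 in limma), and by -0.15 among the NML-KO livers. Eif2ak3, for the ER stress kinase PERK, differed by -0.22 (adjusted p = 0.350), and Eif2ak4, for the amino acid sensor GCN2, by 0.026. Eif2a, an initiator tRNA carrier outside the eIF2 complex despite its name, differed by 0.25 (SE 0.09, adjusted p = 0.105) and passed after quantile normalization, and Eif2d, a recycling and reinitiation factor gene, by -0.022. Eif5, whose product triggers GTP hydrolysis by eIF2, differed by -0.28 (SE 0.09, adjusted p = 0.0739).

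On the brightest probe set of each gene, the 5 eEF1 genes, Eef2 and its kinase gene Eef2k all lay above 0 in Dbp-high livers. None passed under the deposited scaling, while Eef2 and Eef2k passed after quantile normalization. Eef2, the translocase gene, had 12.59, 12.51 and 12.50 in NML-KO and 12.72 and 12.79 in WT Dbp-high livers, against 12.52 and 12.37 in NML-KO and 12.46, 12.41 and 12.48 in WT Dbp-low livers. The sets overlapped through NML-KO livers, and the difference was 0.20 (SE 0.06, adjusted p = 0.0581), with 0.09 among NML-KO and 0.30 among WT livers. Eef2k, which encodes the kinase that inhibits eEF2, differed by 0.24 (adjusted p = 0.10). Its dimmer probe set gave -0.09 (SE 0.11, adjusted p = 0.662 over all probe sets). Both have all 10 nearest named probe sets on the gene's own chromosome 7. The 5 eEF1 genes had a median of 0.19, the value of Eef1e1, the multisynthetase complex scaffold gene. They ran from 0.05 for the exchange subunit gene Eef1d to 0.27 for Eef1a2, the aminoacyl-tRNA carrier of muscle and neurons. Eef1a1, the general carrier, differed by 0.07 (SE 0.06). The eEF1 median was 0.018 among NML-KO livers, with 3 of 5 genes above 0, and 0.29 among WT livers, with all 5 above 0. Of the methyltransferases, Eef1akmt1, for a lysine methyltransferase of eEF1A, fell 1.41-fold. Its values were 6.11, 6.04 and 6.30 in NML-KO and 6.38 and 6.34 in WT Dbp-high livers, against 6.66 and 6.81 in NML-KO and 6.68, 6.81 and 6.80 in WT Dbp-low livers (-0.49, SE 0.07, adjusted p = 0.00178). The other 4 methyltransferase genes lay between -0.03 and 0.06.

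**Figure D3:**
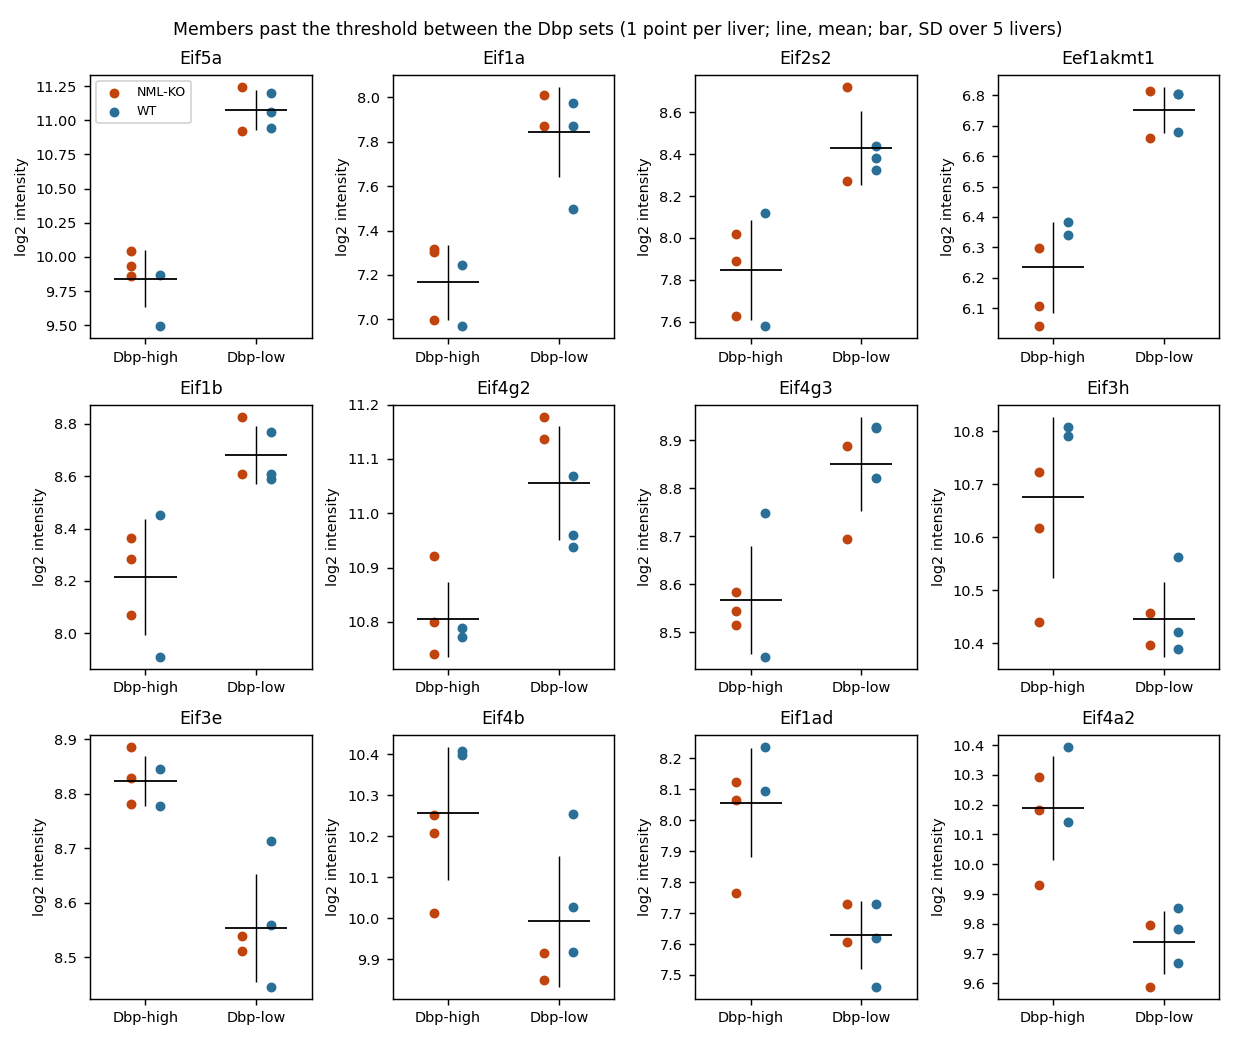
Log2 intensity in every liver of the 12 members past the threshold between Dbp-high (left) and Dbp-low livers (right), in the order of their difference; each point is a liver, coloured by genotype, with the mean as a line and the SD over 5 livers as a bar. The vertical axes differ between panels and do not start at 0. In 9 panels the sets are apart, and in those of Eif4g3, Eif3h and Eif4b they overlap.

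Changes between the Dbp sets also reached regulators of these factors. Of 52 measured genes in 7 lists of translation regulators and partners, 11 passed (21.2%), 4 higher and 7 lower in Dbp-high livers, against 12.9% of all genes. Mknk2, which encodes a kinase that phosphorylates eIF4E, was 9.58 ± 0.22 in Dbp-high and 8.46 ± 0.30 in Dbp-low livers (SD, n = 5 each), a difference of 1.10 (SE 0.16, adjusted p = 0.00178). In the mTORC1 list of 18 measured genes, Mtor itself was also higher, by 0.44 (adjusted p = 0.0173), and 3 were lower: the S6 kinase gene Rps6kb2 at -0.43, the activating GTPase gene Rheb at -0.46 and Larp1, a repressor of terminal oligopyrimidine messages, at -0.28. Mcts1, a partner in ribosome recycling, was lower, at -0.75 (SE 0.07, adjusted p = 0.000232), and Hbs1l, a ribosome rescue factor gene, higher by 0.29. Lower too were Paip2, an inhibitor of the poly(A)-binding protein, at -0.55, the phosphatase gene Ppp1ca, whose product can dephosphorylate eIF2 alpha, at -0.64, and the mitochondrial recycling factor gene Mrrf at -0.47. Sephs2, of selenocysteine synthesis, was higher by 0.55. Between the genotypes, no gene of these lists passed in limma, and the count at an unadjusted p of 0.05 was 0.

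Between the genotypes no factor gene passed. In limma, 0 of 58 members had an adjusted p below 0.05, as did 0% of all genes, and 3 members had an unadjusted p below 0.05, where 2.7% of all genes did. For 0 members were the NML-KO and WT livers apart, against 0.406% of all genes. Of the members, 39 lay below 0 and 19 above, with a median log2 difference of -0.038, while 53.4% of all genes lay below 0 with a median of -0.0065. After quantile normalization the members' median was -0.0079, with 31 below 0, and that of all genes -7.1e-05. Some lists of other cell markers lay mostly below 0 in NML-KO livers too. These were 7 of 8 Kupffer cell, 7 of 8 sinusoidal endothelial, 5 of 6 cholangiocyte and 4 of 5 fat markers. Their medians were -0.11, -0.063, -0.056 and -0.43, with no gene at an unadjusted p below 0.05 in limma. Skeletal muscle markers went the other way, with 5 of 7 above 0, though this list includes the member Eef1a2, at 0.07. The neutrophil list, with 5 of 8 above 0, and the stellate cell, B cell, T and NK cell and erythroid lists were nearer an even split. The fat median was -0.04 in the Dbp-low set, which does not hold WT 2, the liver that stood apart on fat markers. The part of any of these lists in the factor values was not tested. For 51 of the 58 members the 95% interval stayed within 0.5 log2 units of 0, or 1.41-fold in either direction, and for 56 with the Dbp set as a term, the exceptions then being Eif2ak3 and Eif4e3. Eif5a had a wide interval, -1.0 to 0.77, and each genotype spans both Dbp sets. With the set as a term it differed by 0.14 (95% interval -0.09 to 0.37).

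The 3 members with an unadjusted p below 0.05 shifted by little. Eef1d was 7.20, 7.16, 7.21, 7.09 and 7.25 in NML-KO livers 1 to 5, against 7.10, 7.07, 6.97, 7.11 and 6.92 in WT livers 1 to 5. NML-KO values were the higher on the whole, with NML-KO 4 inside the WT range, and the difference was 0.15 (SE 0.05, unadjusted p = 0.0210, adjusted p = 0.999). Eif3k, an outer subunit gene of eIF3, was 8.17, 8.20, 8.39, 8.50 and 8.48 in NML-KO livers 1 to 5, against 8.67, 8.57, 8.42, 8.63 and 8.54 in WT livers 1 to 5. Only WT 3 lay within the NML-KO range, and the difference of -0.22 (SE 0.08, unadjusted p = 0.0214, adjusted p = 0.999) was -0.36 in the Dbp-high and -0.04 in the Dbp-low set. Eif3m differed by -0.24 (SE 0.09, unadjusted p = 0.0286, adjusted p = 0.999), but its brightest probe set has neighbours on chromosome 1, and the probe set with neighbours on its own chromosome 2 gave 0.10 (SE 0.17). By factor, eIF3 had the lowest median among groups of at least 3 genes, -0.10 with 8 of 11 subunit genes below 0. In the same groups eEF1 had the only median above 0, at 0.033, the value of Eef1e1, the multisynthetase complex scaffold gene. The members nearest a difference in other groups were Eif4a1 at 0.17 (SE 0.08), Eif4e3 at -0.25 (SE 0.13), Eif4ebp2 at -0.15 (SE 0.08), Eif2ak4 at -0.12, Eif2b4 at -0.16 and Eef1aknmt at -0.09, with unadjusted p from 0.0705 to 0.155.

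The genotype difference was also taken within each Dbp set, where groups hold 3 and 2 livers. In the Dbp-high set, 39 of 58 members lay below 0 in NML-KO livers, with a median of -0.085 (all genes, 53.8% below 0 and -0.013). In the same livers the fat markers had a median of -0.82, with WT 2 the liver that stood apart on them, and the Kupffer cell markers -0.13. Without WT 2, which leaves 1 WT liver in that set, 37 members lay below 0 with a median of -0.060, and after quantile normalization 33 did, with a median of -0.048. In the Dbp-low set, 26 of 58 lay below 0, with a median of 0.017 (all genes, 53% and -0.0060). The eIF3 median was -0.17 in the Dbp-high set and -0.031 in the Dbp-low set, and the eEF1 median -0.14 and 0.14. No member passed a test of the difference between the sets, the interaction term in limma, for which 0% of all genes passed, and 4 members had an unadjusted p below 0.05, all with a more negative genotype difference in the Dbp-high set, where 6.49% of all genes had such a p, 3.84% with a negative term. Those 4 were Eef1b2 (interaction -0.48, unadjusted p = 0.00714, adjusted p = 0.734), Eif5b, Eif4e3 and Eif3k. Without WT 2 the term of Eef1b2 was -0.46 and that of Eif3k -0.37, while Eif5b, at -0.26, and Eif4e3, at -0.25 against -0.53 with WT 2, no longer had an unadjusted p below 0.05. Eef1b2, an exchange subunit gene of eEF1, was 9.66, 9.73 and 9.75 in NML-KO and 10.04 and 10.08 in WT Dbp-high livers, and 9.80 and 9.66 in NML-KO and 9.42, 9.62 and 9.73 in WT Dbp-low livers. Its WT livers thus differed between the Dbp sets by 0.47, and its NML-KO livers by -0.02.

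**Figure D4:**
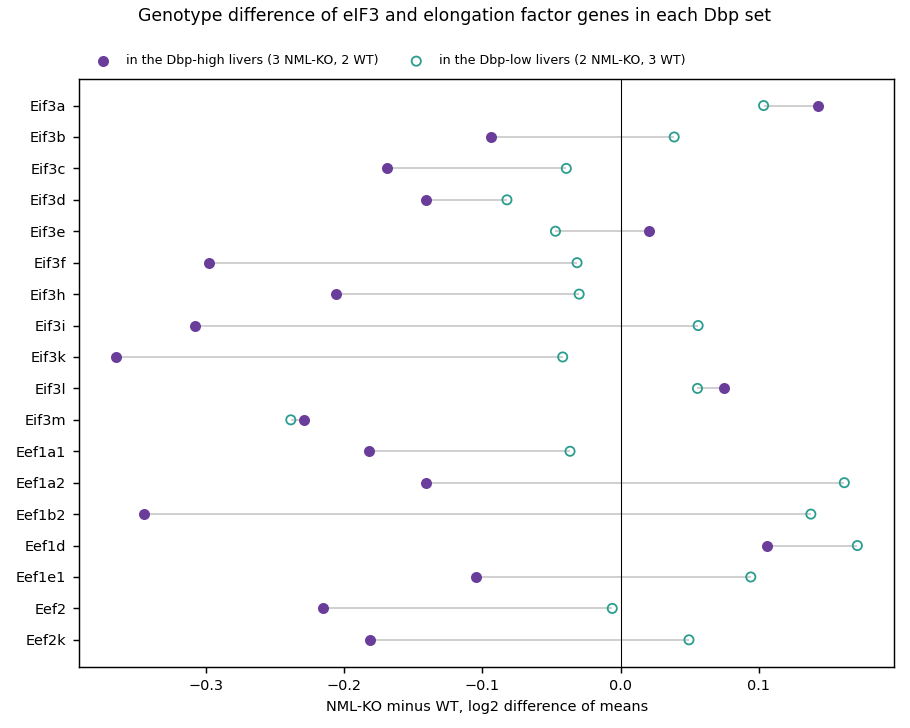
NML-KO minus WT log2 difference of the eIF3, eEF1, Eef2 and Eef2k genes in the Dbp-high livers (filled points) and the Dbp-low livers (open points), joined by a line for each gene. The widest gap is that of Eef1b2, at -0.35 in Dbp-high and 0.14 in Dbp-low livers; each point rests on 5 livers.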

How the data were processed

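Liver RNA of 10 mice was hybridised to whole-transcript arrays, per the labels' protocols. The values deposited by the authors were linear intensities of 28815 probe sets per array. The submitters' processing notes name mm8 as genome build, with background correction, normalization and summarization not given in the sources used here. Array medians ran from 62.5 to 66.7. The number of arrays limits the precision, and because the labels state nothing on litters or cages, p-values measure the spread between these livers.

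Values were taken to log2 with no filter. The 21780 probe sets with 1 gene symbol, of which 21689 were updated by gene ID through a RefSeq table (GRCm38.p6, used for names and chromosomes only), gave 19935 genes. The probe set with the highest mean was kept for each gene, which mattered for 8 members with several. Fits used limma 3.58.1 in R 4.3.3 (lmFit, eBayes), with Benjamini-Hochberg adjustment over all genes at 0.05: NML-KO against WT, Dbp-high against Dbp-low with genotype as a term, genotype with the Dbp set as a term, and their interaction. The fits were also run on simulated data with independent noise. The simulated genotype comparisons held no Dbp difference, so they do not measure the power of that fit in these livers. Members, the Dbp line, the lists of regulators and cell markers, and the rule for named genes (the 15 members of smallest unadjusted p in each contrast, the smallest in each factor group and list, and fixed paralog sets) were chosen with earlier results of these data known, so p-values of the Dbp contrast describe a split already seen. The choice of probe set by neighbouring identifiers was added after seeing that probe sets of 1 gene disagreed, and the interaction without WT 2 after seeing its fat markers. Promoter windows came from a RefSeq table of the same assembly.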

Additional observations from a re-analysis of the deposited data

Results flagged for a closer look

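In groups of 5 livers, a value was singled out when its gap to the next exceeded 0.71 of the group's range, which happens by chance in about 1 of 20 groups; of 116 groups tested (58 members in each genotype), 2 met this. The Eif2a signal of WT 2 was 8.68, against 8.20 to 8.31 in the other WT livers. Eif2ak1 was 7.99 in NML-KO 2, against 8.46 to 8.57 in the other NML-KO livers.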

How the results depend on the processing

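Between the genotypes, the count of members past the threshold was 0 under all alternatives run. Between the Dbp sets it was 12, and 10 to 15 under the alternatives of normalization, prior, array weights, dim genes, offset, probe sets and genotype term; it was 7 to 15 with single livers left out, 1 within the NML-KO livers and 4 within the WT livers, where fewer livers enter. With the replicate number as a block it was 0 (2 of all genes passed), and Eif4b turned to -0.11; livers of the same number share a Dbp set except for number 3, so that block leaves 1 pair to compare the sets. Deviations of same-numbered livers from their genotype means correlated by 0.44, 0.26, -0.42, 0.35 and 0.54 over genes. The Dbp set was not taken out of these deviations, and the only negative value is that of number 3. The correlations therefore cannot tell whether the numbers mark pairs, and the numbers were not taken as pairs. The genotype difference turned sign for Eif3m with the probe set of its own chromosome (0.10), and within the Dbp-low livers for Eif4e3 (0.037), Eif2b4 (0.018) and Eef2kmt (0.0091). Rrp8 differed by -0.88 (adjusted p = 0.109), by -0.96 at its furthest and -0.82 at its nearest with a liver left out, and passed without NML-KO 4 (-0.96, adjusted p = 0.0171). The interaction gave 0 calls under quantile normalization, a trended robust prior and without WT 2, a setting added after seeing its fat markers. Why these results moved was not tested, apart from the fewer livers named. Quantile normalization put Eef2 (0.32, adjusted p = 0.00284), Eef2k and Eif2a past the threshold between the Dbp sets and took Eif4g2 (-0.13, adjusted p = 0.204) and Eif4g3 (-0.20, adjusted p = 0.136) below it. It also turned the members' median between those sets to 0.035 and brought that between the genotypes to -0.0079. Whether a background remains in the intensities is unknown.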
